A study of Mus musculus with 25 samples.

Results

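The 978 regions described here are stretches of chromatin that carried dimethylated lysine 79 of histone H3 (H3K79me2) in wild-type (WT) mouse embryonic stem cells (mESCs) and that touched no annotated gene. They were found by merging the peaks of the 2 WT H3K79me2 libraries that overlapped by at least 1 bp and keeping merged regions with a peak of both libraries, shorter than 10000 bp, on chromosomes 1 to 19, that overlapped no RefSeq gene body of any biotype in GRCm38. They made up 2.72% (Wilson 95% interval 2.56 to 2.90%) of the 35907 merged regions with a peak of both libraries, and 2.87% of the 34097 short ones on chromosomes 1 to 19. The other 33119 short regions overlapped a gene body. The regions were chosen by WT H3K79me2 peaks, so their H3K79me2 values in WT cells are given as a description and were not tested. Intervals on shares cover counting error only, and neighbouring regions are not independent of each other.

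The study compared mESCs of the v6.5 line with and without Dot1L, and 8-cell embryos with and without a Dot1L inhibitor. Chromatin immunoprecipitation (ChIP) used the Abcam antibodies ab3594 for H3K79me2 and ab2621 for H3K79me3, with 2 libraries each from WT and Dot1L knockout (KO) mESCs, listed as untreated. RNA came from 3 WT and 2 KO mESC libraries, with 26860390 to 33754956 rounded estimated counts each. RNA of embryos came from B6D2F1 females crossed with Cast/EiJ males, in 2 pools given DMSO and 2 given SGC0946, an inhibitor of Dot1L, with 30 to 35 embryos per pool at 56 hours after fertilization and 24950199 to 32479590 counts per library. The embryo groups are pools of whole embryos that all received the solvent or the inhibitor, and the labels do not say whether the mESC replicates were separate cultures or clones, so p-values measure the spread between these samples only. In bulk samples, fewer cells of a type and less RNA per cell cannot be told apart. Depth of the ChIP libraries is unknown, because peak lists give no read counts.

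DOT1L is the methyltransferase that places mono-, di- and trimethylation on lysine 79 of histone H3, a residue on the outer face of the nucleosome. It travels with transcribing RNA polymerase II in complexes with elongation factors, and H3K79me2 is best known as a mark over the first part of transcribed genes. H3K79 methylation has also been described at enhancers, which can lie between genes and can themselves be transcribed.

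Several of the regions lay beside microRNA genes, which are short and whose primary transcripts often begin well upstream of the annotated hairpin. Of the 919 hairpins on chromosomes 1 to 19 in the RefSeq table of GRCm38.p6, those of 32 genes lay within 5 kb of a region, and 28 regions had such a hairpin nearby. Of the 32, 16 had no other annotated gene over the hairpin. The region at chr7:3213950-3217274, with an H3K79me2 fold of 6.41 in WT library 1 and 7.72 in WT library 2, lay 1351 bp before the hairpin of Mir290a, the first of the miR-290 cluster, which is the most abundant microRNA family of mESCs. The annotated gene Nlrp12 also lay over the Mir290a hairpin. Some of the mature microRNAs of the miR-290 cluster within 5 kb of the region are shown, picked to show shared and related seeds. Their seed (bases 2 to 8, the part that pairs with targets) is in capitals. Others of the cluster within 5 kb, among them miR-293-3p, miR-294-5p and miR-295-5p, carry other seeds and are not shown.
miR-294-3p: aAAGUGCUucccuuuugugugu
miR-295-3p: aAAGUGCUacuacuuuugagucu
miR-291b-3p: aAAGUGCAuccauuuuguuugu
miR-290a-3p: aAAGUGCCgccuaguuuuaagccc
miR-290a-5p: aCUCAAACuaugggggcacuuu
miR-292a-5p: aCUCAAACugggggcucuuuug
miR-293-5p: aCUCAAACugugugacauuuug
The first pair shares the seed AAGUGCU, which 5 mature microRNAs in the table carry, and the 5p arms shown share CUCAAAC, which 3 carry. A region at chr14:115041086-115041720 lay 1950 bp before the hairpin of Mir17, which opens the miR-17 cluster, a group of growth-promoting microRNAs with differing seeds. Some that share a seed are shown.
miR-17-5p: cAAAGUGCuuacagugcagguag
miR-20a-5p: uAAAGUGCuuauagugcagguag
miR-19a-3p: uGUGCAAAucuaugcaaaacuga
miR-19b-3p: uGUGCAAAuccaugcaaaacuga
Here miR-17-5p and miR-20a-5p share AAAGUGC and the miR-19 pair shares GUGCAAA. Others of this cluster within 5 kb, among them miR-18a-5p and miR-92a-3p, carry other seeds and are not shown. The RNA tables count genes rather than mature microRNAs, so no level is given for these sequences. MicroRNAs other than Mir290a were chosen for naming after their positions were seen.

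A further 13 regions reached into a promoter window of 13 genes, out of 27025 genes with a window in RefSeq's GRCm38.p6 table. The 250 bases before the start of 2 of these genes are shown on the gene's strand, 5′ to 3′, with the bases inside the H3K79me2 region in capitals.
Trim39, chr17:36272005-36272254, minus strand: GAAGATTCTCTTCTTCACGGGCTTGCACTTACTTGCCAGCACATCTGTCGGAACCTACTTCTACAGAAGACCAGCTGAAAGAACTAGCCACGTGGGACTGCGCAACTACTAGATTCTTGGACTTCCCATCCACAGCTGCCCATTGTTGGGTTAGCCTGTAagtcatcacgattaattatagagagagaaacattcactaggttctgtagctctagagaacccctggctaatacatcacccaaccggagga
Col18a1, chr10:77166531-77166780, minus strand: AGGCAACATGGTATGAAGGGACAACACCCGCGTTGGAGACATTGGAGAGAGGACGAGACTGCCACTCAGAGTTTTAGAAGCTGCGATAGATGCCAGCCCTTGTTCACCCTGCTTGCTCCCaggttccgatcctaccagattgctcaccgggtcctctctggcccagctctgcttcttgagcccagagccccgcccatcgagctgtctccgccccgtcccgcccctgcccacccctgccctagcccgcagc
Trim39 encodes a ubiquitin ligase and Col18a1 a basement-membrane collagen. A window holds these 250 bases and the 50 after the start. Over the 300 bases of the window, CpG pairs numbered 8 at Trim39 and 16 at Col18a1, beside a median of 7 in all 32851 windows. The region covered 160 bases of the Trim39 window and 120 of the Col18a1 window.

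The regions were short and moderately enriched. Their length ran from 243 to 9084 bp with a median of 789.5 bp, beside a median of 994 bp for short regions in genes, and together they covered 1094.53 kb. The authors' fold enrichment of the strongest peak in a region had a median of 3.80 in WT library 1 and 3.75 in WT library 2, beside 4.13 and 4.06 for short regions in genes. Most regions rested on a single peak per library, 861 of them in WT library 1 and 824 in WT library 2. At the edges of the rule, 38 regions lay within 100 bp of a gene and 30 short regions counted as in a gene overlapped one by under 100 bp. The longest regions inside the limit measured 9084, 8383 and 7750 bp, and the 3 regions outside genes that the limit removed measured 11536, 25703 and 37063 bp. With peaks of a single WT library, the same rule gave 2171 regions for WT library 1 and 1957 for WT library 2.

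Most regions lay close to a gene, and most often to a protein-coding one. The gap to the nearest gene body had a median of 3281.5 bp, and 583 of the 978 regions (59.6%, interval 56.5 to 62.6%) lay within 5 kb of a gene. Only 9 lay more than 50 kb from any gene. The nearest gene was protein-coding for 580 regions, a long noncoding RNA for 201, a pseudogene for 119 and a microRNA for 36. Strand was known for the nearest gene of 634 regions: 378 lay on its start side, before the start, and 256 on its end side, past the end. Within 5 kb these numbers were 236 and 166. Start-side regions had a median gap of 2458.5 bp and end-side regions of 3055 bp, as the plot of distances shows.

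**Figure D1:**
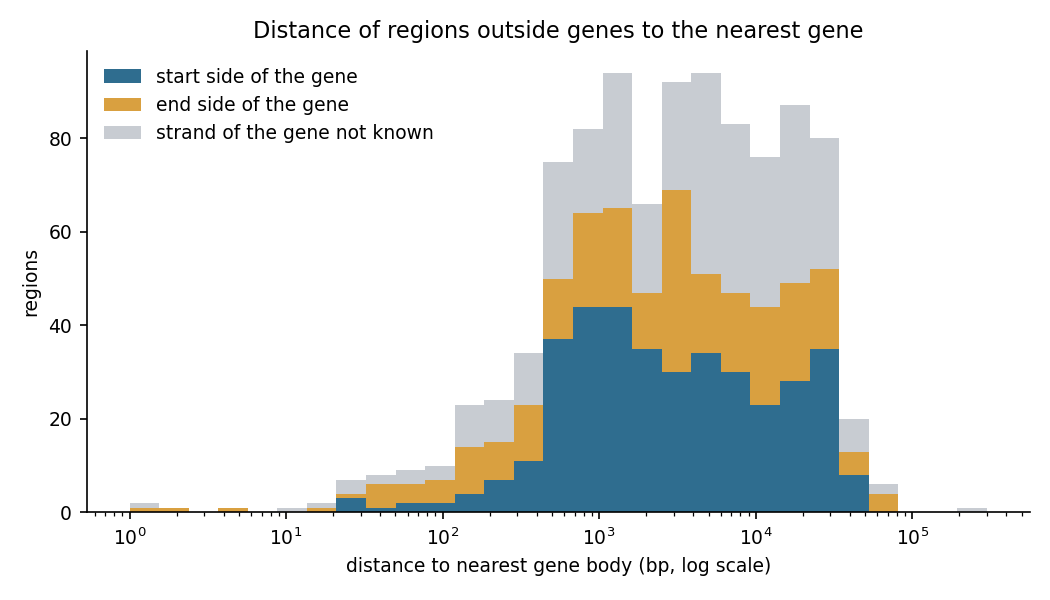
Number of regions outside genes (y axis) by distance to the nearest gene body in bp (x axis, log scale), stacked by the side of the gene on which the region lay. Of 978 regions, 378 were on the start side, 256 on the end side and 344 beside a gene of unknown strand; a gap of 0 is drawn at 1 bp.

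The neighbouring genes were themselves often marked. A merged H3K79me2 region of both WT lists overlapped the body of the nearest gene for 634 of 978 regions (64.8%). For regions next to a protein-coding gene this share was 83.3% (483 of 580, interval 80.0 to 86.1%). Counted by gene, 37.0% of all 20665 protein-coding genes on chromosomes 1 to 19 carried such a region. The share over regions counts a gene once for each of its regions, so these shares are not counted alike. Of the 566 different nearest genes of any kind, 373 had a marked body, beside 19.3% of all 47042 genes of these chromosomes. The mark was read from the WT lists that chose the regions, so this is a description. An H3K79me2 region in a gene lay within 5 kb for 441 regions (45.1%), while 186 regions were more than 50 kb from any. Within 5 kb, the gene of any kind was marked for 187 of 236 regions on the start side (79.2%, interval 73.6 to 83.9%) and for 126 of 166 on the end side (75.9%, interval 68.9 to 81.8%). Next to protein-coding genes alone, the numbers were 166 of 181 on the start side (91.7%, interval 86.8 to 94.9%) and 102 of 124 on the end side (82.3%, interval 74.6 to 88.0%). The intervals of the sides overlap in both comparisons, and the difference was not tested.

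The regions gathered in groups. Another region lay within 5 kb of 620 of them (63.4%). When regions within 100 kb of each other were joined, 454 groups resulted, of which 258 held 1 region and 40 held 5 or more, with 314 regions in all. The groups named next were chosen after their size was seen. The largest held 22 regions over 55.6 kb of chromosome 1 between positions 136566884 and 136622498, nearest to Kif14, which encodes a mitotic kinesin, and Zfp281, which encodes a zinc-finger factor of mESCs. A group of 19 regions over 39.8 kb of chromosome 7 lay next to Rbmxl2, a germ-cell RNA-binding gene. Next in size were 15 regions on chromosome 4 near Gm13246, Vmn2r-ps15 and Znf41-ps, and 14 on chromosome 12 near Gm9241 and LOC115488002. A group of 13 regions spread over 63 kb beside Jarid2, which encodes a cofactor of the Polycomb complex PRC2, and another of 13 lay around Usp7, a deubiquitinase gene. The density differed between chromosomes, from 1.34% of short H3K79me2 regions outside genes on chromosome 3 to 4.74% on chromosome 12.

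Trimethylation was found at a minority of the regions. An H3K79me3 region present in both WT lists overlapped 64 of 978 regions (6.54%, interval 5.16 to 8.27%) and 1364 of 33119 short regions in genes (4.12%, interval 3.91 to 4.34%). From the H3K79me2 peaks of WT library 1 alone the shares were 3.82% outside and 2.62% in genes, and from those of WT library 2 alone 4.24% and 2.83%. With peaks within 1 kb merged they were 7.36% and 6.54%, with overlapping intervals (5.41 to 9.95% and 6.11 to 7.002%). Without the limit on length they were 6.73% of 981 regions outside and 5.11% of 34040 in genes. These intervals also overlapped (5.32 to 8.47% and 4.89 to 5.35%). H3K79me3 was not used to choose the regions. By library, 125 regions had a peak in WT library 1 and 71 in WT library 2, whose lists held 19800 and 7338 peaks in all. A peak of either list was present at 129 regions (13.2%).

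The share with H3K79me3 was higher farther from genes. It was 2.21% (interval 1.02 to 4.75%) for regions up to 1 kb from a gene, 4.81% (2.93 to 7.78%) from 1 to 5 kb, 10.5% (6.46 to 16.6%) from 5 to 10 kb and 11.1% (7.80 to 15.6%) beyond 10 kb. The interval of the class nearest to genes does not overlap those of the 2 farthest. Over the same classes the share of regions whose nearest gene was itself marked by H3K79me2 was 78.2%, 71.5%, 51.0% and 50.0%, while the median length stayed between 760 and 821 bp. Regions with H3K79me3 were longer (median 1389.5 bp against 771.5 bp) and more enriched for H3K79me2 (median of the mean fold 4.95 against 3.76) than those without it.

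Taken over all kinds of nearest gene, the share was higher outside than in genes at each length. In regions under 500 bp, H3K79me3 was present at 3.83% outside genes (8 of 209) and 0.763% in genes (39 of 5112). From 500 to 999 bp the shares were 3.97% and 0.971%, from 1000 to 1999 bp 6.35% and 2.25%, and at 2000 bp and over 21.1% (24 of 114) and 12.7% (1023 of 8036). The intervals did not overlap in any of the 4 classes, and no test was made because regions are not replicates.

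**Figure D2:**
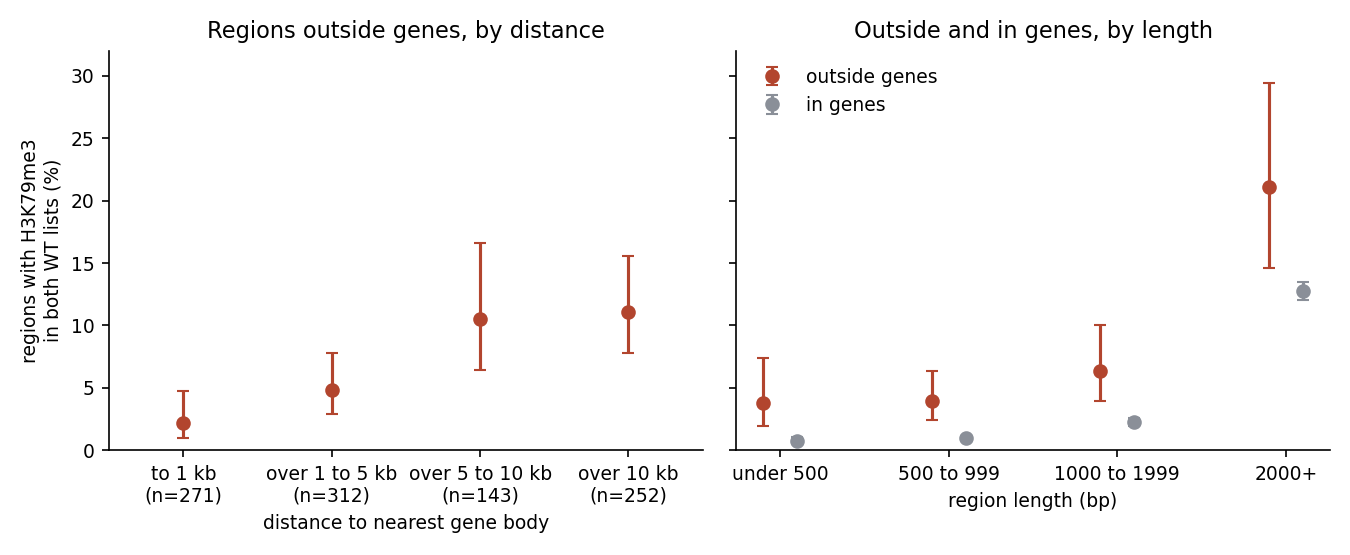
Percent of H3K79me2 regions that overlap an H3K79me3 region of both WT lists (y axis), for regions outside genes by distance to the nearest gene (left) and for regions outside and in genes by length in bp (right); points are shares and bars Wilson 95% intervals. The share outside genes runs from 2.21% up to 1 kb from a gene to 11.1% beyond 10 kb, and lies above the share in genes in each length class.

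Many of the trimethylated regions lay next to pseudogenes. Of the 64 regions, 24 had a pseudogene as nearest gene, 18 a protein-coding gene, 14 a long noncoding RNA and 4 a microRNA. As shares of the regions next to each kind of gene these were 20.2% (24 of 119, interval 13.9 to 28.3%) for pseudogenes, 3.10% (18 of 580, interval 1.97 to 4.85%) for protein-coding genes, 6.97% (14 of 201) for long noncoding RNAs and 11.1% (4 of 36, interval 4.41 to 25.3%) for microRNAs. Over all lengths, the share of short regions in genes was 4.12%. That lies inside the interval for regions next to protein-coding genes and below the interval for those next to pseudogenes. The kinds of nearest gene were not split by length. The 64 regions lay in 44 of the groups, and the share was 8.28% in groups of 5 or more regions and 5.72% in smaller ones. Reads from near-identical copies could have been placed at the wrong copy, and the part of this in the peaks was not tested.

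The 5 regions with the highest scores (10 times the −log10 q of the authors' peak caller) all lay on chromosome 8 near 3 pseudogenes and a predicted gene, and all 5 had H3K79me3 in both WT lists. The highest, at chr8:20122549-20129194, had an H3K79me2 score of 664 in WT library 1 and 715 in WT library 2, and was 7087 bp from the pseudogene Gm21811. Its H3K79me2 fold was 4.74 and 5.24, and its H3K79me3 fold 5.27 and 4.87. The second, at chr8:19785349-19793731 beside Gm10060, had scores of 637 and 579. A high score is not the same as a high fold. The fold of the Gm21811 region was below the highest in the set, 9.67 in WT library 1 and 9.89 in WT library 2.

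The longest region had no H3K79me3. It covered chr12:108783204-108792287, 657 bp before the start of Yy1, which encodes a zinc-finger factor that links enhancers and promoters, with a fold of 8.63 and 9.39. A region of 7750 bp lay between Ide, the insulin-degrading protease, and the mitotic kinesin gene Kif11, which are transcribed away from each other. The most remote region, at chr11:9974174-9974751, was 236562 bp from the nearest annotated gene, the pseudogene Eif3s6-ps1, and 845290 bp from the nearest H3K79me2 region in a gene. It had H3K79me3 in both WT lists, at a fold of 5.68 and 4.77. A pair of neighbouring regions on chromosome 16, over 75 kb from Gm18896, also had H3K79me3, with folds of 5.21 to 8.08.

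Nearly all peaks at the regions were absent in Dot1L KO cells. The KO H3K79me2 lists held 16 and 12 peaks in all, and each had a peak at 1 of the 978 regions. Of the 33119 short regions in genes, 7 and 3 had one. The region at chr12:23185919-23187459 (nearest gene Gm9292) had a fold of 4.51 in KO library 1 beside 4.78 and 3.84 in the WT libraries. The other, at chr12:20199294-20203679 (nearest gene Gm32719), had a fold of 4.15 in KO library 2 beside 3.35 and 7.32. Neither KO peak was present in the other KO library.

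H3K79me3, whose WT values the rule did not use, was absent as well at nearly all regions. Peaks were present at 125 and 71 regions in the WT libraries and at 2 and 0 in the KO libraries, so the groups did not overlap (98 ± 38.2 against 1 ± 1.41, SD, n = 2 each; 2-sided exact permutation p = 0.333, the smallest that 2 against 2 can give). As shares these were 12.8% and 7.26% in WT and 0.204% and 0% in KO. Short regions in genes also lost the peaks, with 9.20% and 4.54% in WT and 0.0121% and 0.0181% in KO. The KO H3K79me3 lists held 178 and 328 peaks in all. Both regions with a KO H3K79me3 peak were among the 5 highest-scoring ones on chromosome 8: the Gm21811 region above, with a fold of 3.27, and the region at chr8:20558241-20560397, with a fold of 2.82 beside 5.72 and 4.10 in WT.

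**Figure D3:**
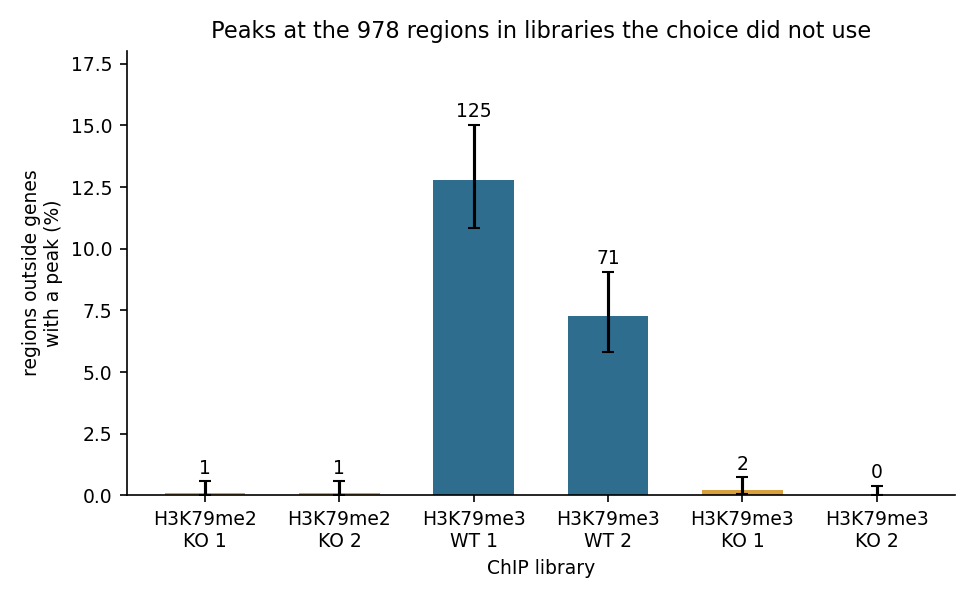
Percent of the 978 regions with a peak (y axis) in each ChIP library that was not used to choose them (x axis); bars are shares, whiskers Wilson 95% intervals and numbers the regions with a peak. The WT H3K79me3 libraries had peaks at 125 and 71 regions and no KO library had more than 2.

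Genes next to the regions had a higher median level in WT mESCs than genes at large, and those without the mark on their own body a lower one. The 978 regions had 566 different nearest genes, of which 411 were in the mESC table and 388 passed the filter on low counts (94.4%, against 63.2% of all genes of chromosomes 1 to 19 in the table). Their median level was 6.03 log2 CPM (read counts divided by TMM-scaled library size, with 0.5 added; SD of the 3 libraries' medians 0.0345), against 3.60 for all genes of these chromosomes that passed and 5.73 for those with H3K79me2 over their body. More than 10 CPM was reached by 83.2% of them. The 313 tested nearest genes with a marked body had a median of 6.52, and the 68 without had a median of 2.64, with 36.8% over 10 CPM. The 26 tested pseudogenes not listed as transcribed had a median of 0.62. The level differed with the side: the median was 6.77 where the region lay on the start side within 5 kb and 5.22 where it lay on the end side. CPM is not scaled to transcript length, so levels of single genes are compared between libraries only.

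In Dot1L KO mESCs, the share of genes next to the regions that were lower was above that of genes at large, and the share that were higher was below it. Of the 388 tested, 232 were called (59.8%, interval 54.8 to 64.6%) by edgeR's quasi-likelihood test at a Benjamini-Hochberg adjusted p under 0.05, beside 43.9% of all 19532 tested genes. Lower in KO were 166 (42.8%, beside 21.6% of all genes) and higher were 66 (17.0%, beside 22.3%). The median log2 fold change was -0.10, against 0.00 over all tested genes. These are shares and medians of a list chosen with earlier results known, and the difference in shares was not tested. At an unadjusted p under 0.05, 257 of the 388 differed (66.2%), beside 50.6% of all tested genes.

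Part of the contrast with all genes was shared by marked genes in general. Among genes of chromosomes 1 to 19 with H3K79me2 over their body, 32.1% of 7648 were lower and 17.95% higher, and of the 313 nearest genes with a marked body, 46.6% were lower and 15.3% higher. The calls also followed the level, so they were set side by side within classes of mean WT level, where the wider class includes the nearest genes. At 200 CPM and over, 59 of 85 nearest marked genes were lower (69.4%), beside 50.9% of 910 marked genes. From 50 to 200 CPM the shares were 43.7% and 38.9%, from 10 to 50 CPM 36.3% and 24.4%, and under 10 CPM 11.1% (2 of 18) and 10.8%. The shares of higher genes in the same order were 2.35% and 8.13% at 200 CPM and over, 17.6% and 15.6%, 22.0% and 22.4%, and 27.8% (5 of 18) and 21.8% under 10 CPM. At matched level the share of higher genes was lower next to the regions by over 1 percentage point at 200 CPM and over only. By position, 69 of 146 genes were lower (47.3%) and 21 higher (14.4%) where the region lay on the start side within 5 kb. Where it lay on the end side, 36 of 103 were lower (35.0%) and 23 higher (22.3%). The start-side genes also had the higher median WT level, 6.77 against 5.22 log2 CPM. The sides were not matched on level, and their difference was not tested.

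**Figure D4:**
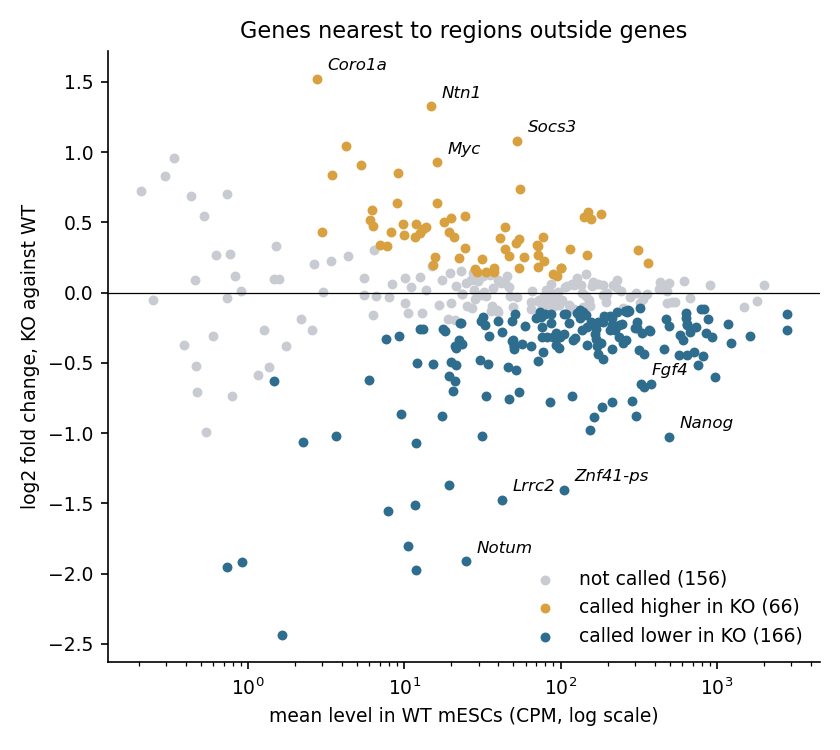
Log2 fold change in Dot1L KO against WT mESCs (y axis) by mean WT level in CPM (x axis, log scale) for the 388 tested genes nearest to a region; each point is a gene, coloured by its edgeR call. Called genes number 166 lower and 66 higher, and those at the highest levels are mostly lower.

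The split between lower and higher calls depends on the scaling of the libraries. With upper-quartile scaling, which moved the median of all genes to 0.07 on the log2 scale, 130 nearest genes were lower and 95 higher, beside 16.2% lower and 28.2% higher of all genes. Markers of other cell types moved with genotype: 6 of 9 tested primitive endoderm markers were higher in KO, with a summed level of 103 to 111 CPM in WT and 149 to 178 CPM in KO. Trophectoderm markers summed to 43.7 to 45.9 CPM in WT and 63.1 to 65.0 CPM in KO (4 of 6 higher and 1 lower), fibroblast markers to 149 to 190 and 201 to 258 CPM (3 of 6 tested higher), and 2-cell markers to 25.6 to 27.4 and 73.3 to 85.3 CPM (4 of 6 higher). Of 6 mESC markers, 4 were lower, with sums of 3300 to 3358 CPM in WT and 2833 to 2896 CPM in KO. No marker was at 0 in every mESC library, and the part of these markers in the results was not tested. On the X chromosome, 527 of 596 expressed genes (88.4%) had a lower value in KO. The regions are all autosomal, and a fit on genes of chromosomes 1 to 19 alone called 176 nearest genes lower and 61 higher.

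Dot1l itself was at 104, 96.9 and 99.2 CPM in WT and at 81.4 and 71.5 CPM in KO, a log2 fold change of -0.39 (edgeR adjusted p = 0.00016). Which exons were deleted is not stated in the sources used here, and RNA from the rest of the gene would still be counted, so this level is a weak check of the labels.

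The 10 nearest genes with the largest rises in KO were chosen among those whose WT and KO libraries did not overlap. Socs3, an inhibitor of JAK-STAT signalling and so of the response to LIF, had 5 regions on its start side, the closest 170 bp away. Its level was 55.9, 51.7 and 51.3 CPM in WT and 121 and 103 CPM in KO (52.9 ± 2.54 against 112 ± 13.2), and it rose by 1.08 on the log2 scale (SE 0.07, edgeR adjusted p = 5.0e-08). The lower KO library was at 103 CPM, and the highest WT library at 55.9 CPM. Coro1a, which encodes an actin-binding protein of blood cells, rose from 2.79, 3.20 and 2.30 CPM to 8.08 and 7.90 CPM, a log2 fold change of 1.52 (SE 0.14, edgeR adjusted p = 1.8e-06). Ntn1, which encodes the guidance ligand netrin-1, rose from 16.0, 13.6 and 15.0 CPM to 36.4 and 37.9 CPM, a log2 fold change of 1.33 (SE 0.07, edgeR adjusted p = 1.2e-08).

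The other 7 of the 10 genes with the largest rises changed by 0.64 to 1.05 on the log2 scale. They were Trmt9b, which encodes a member of a tRNA methyltransferase family, the transcription factor gene Myc, Pigyl, Parp11, which encodes a mono-ADP-ribosyltransferase, Boll, a germ-cell RNA-binding gene, Egln1, which encodes the oxygen-sensing prolyl hydroxylase of HIF, and Acad10. Parp11 had a region with H3K79me3 1366 bp past its end, and went from 8.70, 9.93 and 8.81 CPM to 17.03 and 16.1 CPM. Myc was uneven between the KO libraries, at 24.2 and 37.3 CPM against 15.4 to 17.2 CPM in WT. Its log2 fold change was 0.93 with both and 0.58 without KO replicate 2.

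Genes with the largest falls, chosen by the same rule, included several of low level. Tmprss12, a transmembrane serine protease gene 7192 bp from its closest region, went from 1.85, 1.57 and 1.57 CPM to 0.140 and 0.455 CPM, a log2 fold change of -2.43 (SE 0.36, edgeR adjusted p = 0.00013). Those KO values rest on 4 and 14 counts. Notum, which encodes a secreted enzyme that inactivates Wnt proteins, had a region 87 bp away at chr11:120661281-120662891. It went from 26.8, 24.0 and 24.1 CPM to 5.65 and 7.57 CPM, and fell by 1.91 on the log2 scale (SE 0.11, edgeR adjusted p = 2.2e-08). Lrrc2, a leucine-rich repeat gene with 2 regions on its start side, went from 44.8, 42.4 and 40.3 CPM to 15.1 and 15.5 CPM, and fell by 1.48 on the log2 scale (SE 0.06, edgeR adjusted p = 2.5e-09).

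A pair of neighbours on chromosome 11 fell together, Elobl, an elongin B-like gene, by 1.98 and the transcribed pseudogene 2210409E12Rik by 1.55 on the log2 scale. They lie within 10 kb of each other, and each had its own region less than 2 kb away. Znf41-ps, a transcribed zinc-finger pseudogene on chromosome 4 with 2 regions, went from 104, 107 and 104 CPM to 38.1 and 41.3 CPM, and fell by 1.40 on the log2 scale (SE 0.05, edgeR adjusted p = 7.1e-10). The remaining genes of the 10 with the largest falls were 2410137M14Rik, the pseudogenes Gm3333 and Gm14406, and Peg12, an imprinted gene expressed from the paternal copy, with log2 fold changes of -1.80 to -1.07. Of 31 tested pseudogenes next to a region, 12 were lower (38.7%) and 1 was higher (3.23%), beside 21.6% and 22.3% of all tested genes. Of all 1452 tested pseudogenes of chromosomes 1 to 19, 13.9% were lower and 7.58% higher. Counts of pseudogenes are uncertain where near-identical copies share reads.

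Of the 42 pluripotency and naive-state genes listed, 8 were the nearest gene of a region, beside 566 of all 47042 genes of chromosomes 1 to 19. Those 47042 include genes with no or little RNA in mESCs. Of the 7648 tested genes with H3K79me2 over their body, 313 were nearest to a region. The list was written with earlier results of these data known, so these numbers are a description and were not tested. Of the 8, 7 could be tested. Nanog, Fgf4, Klf2 and Jarid2 were lower in KO and Socs3, Myc and Spry2 higher. These 7 were all called, beside 43.9% of all tested genes. Of tested genes of chromosomes 1 to 19 with H3K79me2 over their body, 50.1% were called. Nanog, a core transcription factor of naive pluripotency, had a region of 2256 bp at chr6:122704103-122706358, 1130 bp before its start, with a fold of 7.06 and 4.85. Its level was 499, 496 and 493 CPM in WT and 231 and 256 CPM in KO (496 ± 3.04 against 244 ± 17.2), and it fell by 1.02 on the log2 scale (SE 0.05, edgeR adjusted p = 2.6e-09). Both KO libraries lay far below the 3 WT libraries, which were close together.

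Fgf4, which encodes the growth factor that drives mESCs towards differentiation, had 3 regions, the closest 482 bp past its end. It went from 323, 326 and 329 CPM to 211 and 205 CPM, and fell by 0.65 on the log2 scale (SE 0.04, edgeR adjusted p = 3.4e-08). Klf2, a transcription factor gene of the naive state, had a region 801 bp before its start at chr8:72317002-72318260. It went from 191, 181 and 177 CPM to 137 and 148 CPM, and fell by 0.36 on the log2 scale (SE 0.05, edgeR adjusted p = 7.0e-05). The groups did not overlap for either gene.

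Jarid2, with 10 regions from 525 to 31105 bp before its start and folds of 2.79 to 6.25, was at 828, 830 and 834 CPM in WT and 739 and 798 CPM in KO. Its log2 fold change of -0.11 (SE 0.04, edgeR adjusted p = 0.032) was not called without KO replicate 1, without any of the WT replicates, with the replicate block (adjusted p = 0.0732) or with upper-quartile scaling, where the value was -0.05. Spry2, an inhibitor of FGF signalling with 2 regions past its end, was at 60.4, 59.0 and 54.7 CPM in WT and 65.1 and 73.1 CPM in KO, a log2 fold change of 0.25 (edgeR adjusted p = 0.0042), or 0.16 without KO replicate 2. Mir290a had 5 regions from 1351 to 14966 bp before its hairpin and was not in the mESC table. No gene of the list for RNA 3′ ends (17 genes) was a nearest gene. Histone genes were picked by symbol prefix (103 genes), meant as replication-dependent ones, and no such gene was nearest to a region within 50 kb. H2al2a, which the prefix also takes in, was the nearest gene of 3 regions 50984 to 58893 bp away.

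**Figure D5:**
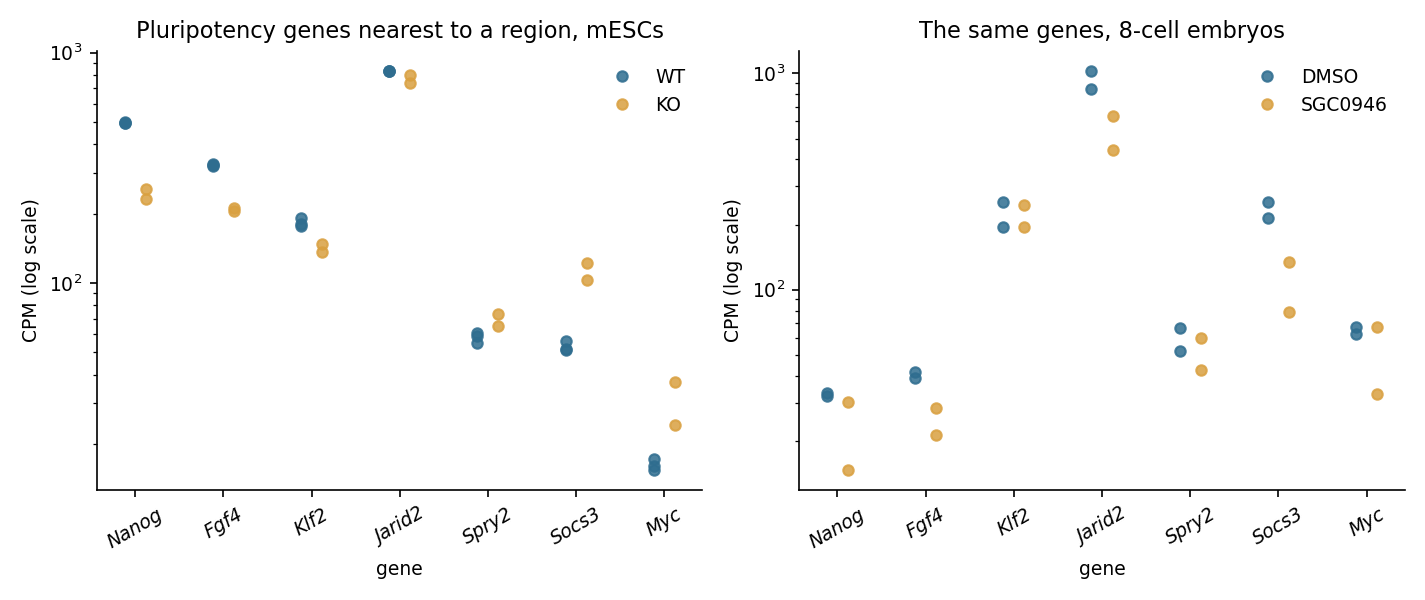
Level in CPM (y axis, log scale) of the 7 tested pluripotency genes nearest to a region (x axis), with 1 point per library, in mESCs (3 WT, 2 KO; left) and 8-cell embryos (2 DMSO, 2 SGC0946; right). In mESCs Nanog and Fgf4 lie lower and Socs3 and Myc higher in KO. In embryos no gene was called; the SGC0946 pools lie below the DMSO pools for Socs3, Jarid2, Fgf4 and Nanog.

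The genes beside the regions named by size, score or promoter changed little or moderately. Yy1, next to the longest region, was at 138 ± 1.04 CPM in WT and 138 ± 7.53 CPM in KO (log2 fold change -0.00, SE 0.05, edgeR adjusted p = 0.97). Its region had no peak in any KO library, and the WT level lay between the KO libraries, at 133 and 143 CPM. Regions reached the promoter window of 13 genes, of which the 5 with the highest-scoring regions were named. These 5 were called lower in KO, beside 21.6% of all tested genes. Among tested genes of chromosomes 1 to 19 with H3K79me2 over their body, 32.1% were called lower. The others of the 13 are not described here. Col18a1 went from 377 ± 6.38 to 240 ± 1.26 CPM (log2 fold change -0.65, edgeR adjusted p = 2.8e-08), Mta1, which encodes a subunit of the NuRD chromatin-remodelling complex, from 105 ± 9.55 to 85.4 ± 0.165 CPM (log2 fold change -0.30), and Trim39 from 34.8 ± 1.28 to 27.99 ± 1.79 CPM (log2 fold change -0.31). Tbrg4 and N4bp1 had log2 fold changes of -0.38 and -0.14, the latter not called with upper-quartile scaling. Ide had a log2 fold change of -0.14 (edgeR adjusted p = 0.021) that was not called without KO replicate 1, without any of the WT replicates or with upper-quartile scaling. On chromosome 8, Gm21811 went from 21.6 ± 2.11 to 15.2 ± 1.498 CPM (log2 fold change -0.51, edgeR adjusted p = 0.00055). Gm10060 had a log2 fold change of -0.31 (edgeR adjusted p = 0.027) that was not called in DESeq2, with upper-quartile scaling, or without KO replicate 1, WT replicate 1 or WT replicate 2.

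In 8-cell embryos, no gene next to a region was called with the inhibitor. Of 402 nearest genes in the embryo table, 357 were tested, and edgeR called 0 of them, as it did of all 14351 tested genes (0%). At an unadjusted p under 0.05, 39 of the 357 (10.9%) differed, 12 higher and 27 lower, beside 8.15% of all genes. DESeq2 called 6 of the 280 nearest genes to which it gave an adjusted p (2.14%), beside 123 of all genes (1.52%). Without the filter on low counts edgeR called 6 of 383 (1.57%), beside 111 of all genes (0.613%). With the replicate number as a block it called 10 of 357 (2.80%), beside 171 of all genes (1.19%). Without SGC0946 replicate 2, edgeR called 18 nearest genes (4.97%), beside 365 of all genes (2.39%). It called 3 nearest genes, of 18 in all, without SGC0946 replicate 1, 1 of 4 without DMSO replicate 1 and 1 of 8 without DMSO replicate 2. The H3K79me2 regions were measured in mESCs, and whether they exist in embryos was not measured here. In embryos, fibroblast markers summed to at most 2.76 CPM, and of these Col3a1, Dcn and Lum were at 0 in every library.

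The nearest genes with the lowest p in embryos included 2 of the pluripotency list. Socs3 was at 255 and 214 CPM with DMSO and at 79.2 and 134 CPM with SGC0946, a log2 fold change of -1.14 (SE 0.21, edgeR adjusted p = 0.203), whereas it was higher in KO mESCs. Jarid2 was at 1030 and 844 CPM with DMSO and at 443 and 634 CPM with SGC0946, a log2 fold change of -0.80 (SE 0.16, edgeR adjusted p = 0.203). Pmaip1, which encodes the pro-apoptotic protein NOXA, was at 6.004 and 5.24 CPM with DMSO and at 19.1 and 24.0 CPM with SGC0946, a log2 fold change of 1.94 (SE 0.35, edgeR adjusted p = 0.203). The pools did not overlap for these genes, and the SGC0946 pools differed most from each other at Socs3.

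DESeq2, edgeR without the filter and the fit with the replicate block each called Socs3, Jarid2 and Pmaip1, in the same direction. Ing2, a chromatin reader gene, and Cd164, which encodes a sialomucin, had higher values with SGC0946, with log2 fold changes of 1.27 and 0.51 (edgeR adjusted p = 0.289 and 0.385). Zfp710, a zinc-finger gene, had a log2 fold change of -0.67 (edgeR adjusted p = 0.347), or -0.34 without DMSO replicate 1. Of the remaining pluripotency genes, Fgf4 was at 39.0 and 41.7 CPM with DMSO and at 21.2 and 28.4 CPM with SGC0946 (log2 fold change -0.70, edgeR adjusted p = 0.446), and Nanog at 32.3 and 33.4 CPM and at 14.6 and 30.3 CPM (log2 fold change -0.55, edgeR adjusted p = 0.724). The value of Nanog rests on SGC0946 replicate 1: it was -0.11 without that pool and -1.17 without the other, where Fgf4 was at -0.51 and -0.93. Klf2, Spry2 and Myc had overlapping pools. Whether changes differed between mESCs and embryos was not tested.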

How the data were processed

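H3K79me2 and H3K79me3 peaks were measured in 8 ChIP libraries of mESCs, and RNA in 5 mESC and 4 embryo libraries. The input libraries were not used here. The deposited peak lists, 1 per library, give for each peak a score, a fold enrichment (ratio over background) and −log10 p and q, all the authors' values. The submitters' processing notes name, with no versions or roles, mm10, Bowtie2 and MACS2 for ChIP, kallisto for all 5 mESC RNA libraries, and STAR and HTSeq for 4 of these and for the embryos. Which tool made the mESC table is not given in the sources used here. The deposited mESC table is read as estimated counts (expected counts) because only 59.2 to 59.9% of its values per library are whole. They were rounded here to whole numbers, and the deposited embryo table holds whole counts. Control and threshold of the peak calls, and strand of counting, are not given in the sources used here, so overlapping genes are uncertain.

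Genes came from RefSeq for GRCm38. Rows with a match were 84.5% of the mESC table and 99.2% of the embryo table, and 69 mESC rows had no symbol. No columns of sample values lacked a sample. The nearest gene of a region was the gene body with the smallest gap. RNA was compared with edgeR 4.0.16 in R 4.3.3 (filterByExpr, TMM scaling, quasi-likelihood test, Benjamini-Hochberg adjustment over all tested genes, prior count 2), tested on simulated data. Shares have Wilson 95% intervals. The members and lists were chosen with earlier results of these data known. Named regions were the 5 with the highest score, the 3 longest, the 3 farthest from genes, the 5 highest with H3K79me3, those with a KO peak and the 5 highest in a promoter window. Named genes were theirs, the 10 per direction with the largest called change in mESCs (within 50 kb, mean of at least 1 CPM, groups not overlapping), the 3 per direction with the lowest p in embryos, and list members. Of the genes the rule chose, 1 is not reported here. Other merging, thresholds, gene sets, scalings, filters, DESeq2 1.42.0, a replicate block and leaving out each library were tried.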

Additional observations from a re-analysis of the deposited data

How the results depend on the processing

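The number of regions outside genes was 516 with peaks within 1 kb merged, 1682 against protein-coding bodies only, and 1957 to 2171 from a single WT list. The share with H3K79me3, 6.54%, became 8.57% with peaks of −log10 q of at least 3, 4.70% with 50% overlap, 13.2% with either list and 3.82 to 4.24% from a single list, beside 2.62 to 2.83% in genes. The number of regions with a KO H3K79me2 peak was 1 with merging within 1 kb. The share within 5 kb of a gene was 44.1% for regions at least 1 kb from genes and 62.5 to 64.2% from a single list. The share within 5 kb of an H3K79me2 region in a gene was 39.5% with merging, 30.3% at least 1 kb from genes and 48.3 to 50.9% from a single list. The median WT level was 6.18 log2 CPM for genes within 5 kb and 5.72 without the filter. Counts of called nearest genes in KO mESCs stayed within 1.5 times, at 196 to 246 called when a library was left out and at 203 in DESeq2. Replicate numbers did not pair the samples: correlations of deviations were -0.01 in mESCs and 0.05 in embryos over 2 shared numbers, and the replicate block gave 217 calls in mESCs (61 higher, 156 lower). In embryos nearest genes called went from 0 to 6 in DESeq2 (2 higher, 4 lower), 6 without the filter (3 higher, 3 lower), 10 with the replicate block (4 higher, 6 lower) and 1 to 18 without a library (0 to 4 higher, 1 to 14 lower), beside 123, 111, 171 and 4 to 365 of all genes, where the lone library of a group was assumed to vary like the other groups. Yy1 changed sign, to 0.065 with upper-quartile scaling and between -0.063 and 0.051 without a library. Of 476 results for named genes, 428 kept direction and side of the threshold, 20 lost a call, 25 gained one and 3 (all Yy1) changed sign. ChIP depth is unknown, so a region without a peak may lie under the detection limit.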
